A study of Mus musculus with 4 samples.

Results

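Transcripts of the autophagy machinery were examined in mouse macrophages that had been given exosomes in culture. The set holds 38 genes, chosen by name as members of the core pathway, with earlier results of these data known, out of 53139 loci in the authors' gene table. Of these, 37 were found in the table and all 37 had been tested by the authors, who tested 12648 loci in all. Map1lc3b was not analysed here. By step, the list has 5 genes of initiation, 6 of nucleation, 6 of membrane supply, 16 of conjugation, 4 cargo receptors and the fusion gene Stx17.

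The macrophages were derived from MCA fibrosarcoma tumours, and the labels give the genotype WT and the line 9609 parent for every sample, so a single tumour line stands behind all of them. They received either exosomes high in MEK1 (MEK1-hi, 2 samples) or exosomes low in MEK1 and marked GFP (MEK1-low, 2 samples). MEK1 is a kinase that activates ERK. The comparison asks how recipient macrophages respond to exosomes of unlike MEK1 content, which cannot be told apart here from the GFP mark. No group without exosomes was analysed here. The labels do not say whether samples of a group were separate cultures, so p-values measure only the spread between these samples, which may be technical.

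Autophagy carries cytoplasm, damaged organelles and microbes to the lysosome inside a membrane that is built around them. The ULK1 kinase complex starts the process, the VPS34 lipid kinase complex marks the membrane with phosphatidylinositol 3-phosphate, and lipid carriers feed its growth. A ubiquitin-like conjugation system then attaches proteins of the LC3 and GABARAP families to the membrane, where cargo receptors bind them, and a SNARE fuses the closed vesicle with the lysosome. In macrophages the same machinery degrades engulfed microbes and restrains inflammasome activity. Only a part of it, which includes the conjugation system, serves LC3-associated phagocytosis. Transcript levels do not measure lipidation of LC3 or flux through the pathway.

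All levels are the authors' deposited values in FPKM (fragments per kilobase of transcript, scaled to library size), with 1 value per group, so no spread between samples can accompany them. They are given as MEK1-low, then MEK1-hi. FPKM corrects for transcript length, which allows levels to be set beside each other between genes. Fold changes are MEK1-hi over MEK1-low computed as log2 of FPKM + 1, and this understates changes at low levels. A gene counted as called where the q-value of the authors' Cuffdiff test was under 0.05.

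The recipient cells carried macrophage transcripts, and those of other cell types were scarce. The 10 macrophage markers stood between 47.5 and 12303 FPKM in the MEK1-low group and between 48.0 and 13148 FPKM in the MEK1-hi group, Cd68 for example at 1728 and 1755 FPKM. Of 33 markers of other cell types, 26 were below 1 FPKM in each group. The authors had tested 11 of the 33, and their deposited table called 0 of those 11. Both that reached an unadjusted p under 0.05 were lower with MEK1-hi exosomes, namely S100a8 at 35.5 and 22.6 FPKM (p = 0.00405 in the authors' deposited table) and Krt18 at 6.48 and 4.05 FPKM (p = 0.0062 in the authors' deposited table). Fibroblast and fibrosarcoma markers summed to 6.64 and 5.38 FPKM over 8 genes, T cell markers to 6.86 and 4.75 FPKM over 5 genes and epithelial markers to 6.54 and 4.10 FPKM over 3 genes. Neutrophil markers summed to 35.6 and 22.7 FPKM over 6 genes, nearly all of it S100a8, and 4 of them (Elane, Mpo, Ly6g and S100a9) were listed at 0. The part of these cells in the results was not tested.

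No autophagy gene was called. The authors' deposited table gave a q-value under 0.05 for 0 of the 37, while over all loci tested 2.44% were called, 309 of 12648. With an unadjusted p under 0.05 in that table, 4 members (10.8%) were lower with MEK1-hi exosomes and 0 were higher, beside 5.12% lower and 3.53% higher over all loci tested. The 4 were the cargo receptor gene Optn, the ubiquitin-like protein genes Gabarapl1 and Map1lc3a and the initiation scaffold gene Rb1cc1. Values were lower with MEK1-hi exosomes in 28 of the 37 members and higher in 9, against 49.8% lower over the 11804 tested loci of at least 1 FPKM. The median log2 fold change of the members was -0.09, and that of those loci was 0.00. In these bulk samples, fewer cells of a type and less RNA per cell cannot be told apart.

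The differences were small as well as uncalled. The log2 fold changes of the members ran from -0.57 for Optn to 0.37 for Uvrag, and 25 of the 37 lay within 0.2 of 0, which is 67.6% beside 67.0% of all tested loci of at least 1 FPKM. The median absolute log2 fold change was 0.13 in both sets. A q-value over the threshold does not show that levels were the same, and with 1 value per group no interval of a difference can be given.

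**Figure D1:**
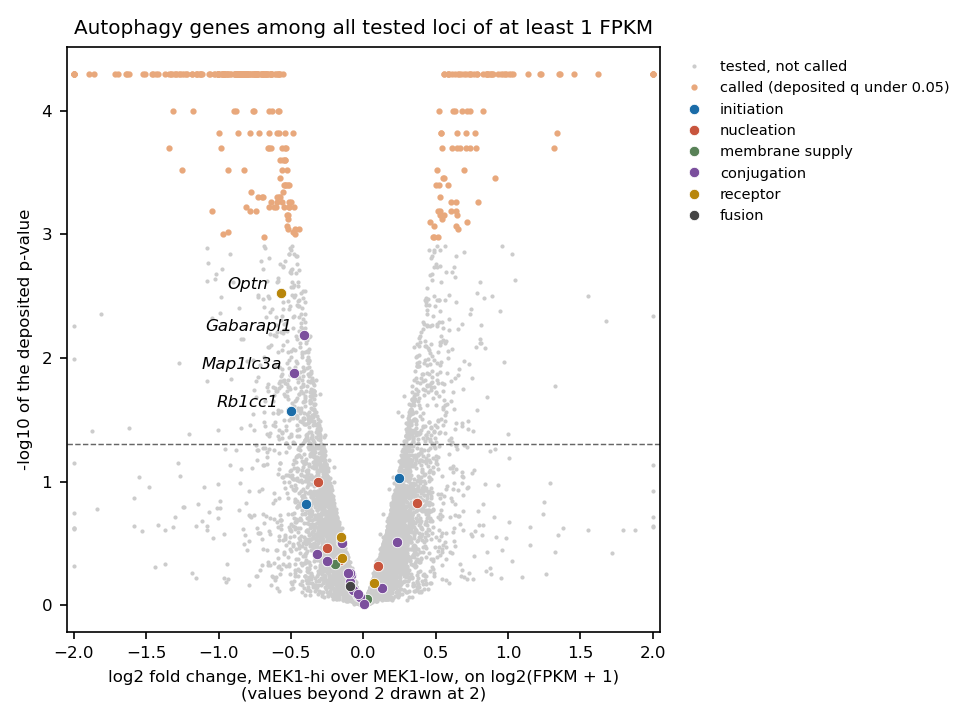
Each point is a tested locus of at least 1 FPKM, with the log2 fold change (MEK1-hi over MEK1-low) on the horizontal axis and -log10 of the deposited p-value on the vertical axis. Grey and orange points are loci not called and called, larger coloured points are the 37 autophagy genes by step, and the dashed line marks the unadjusted threshold. The 4 genes above the line (Optn, Gabarapl1, Map1lc3a and Rb1cc1) all lie on the lower side and none reaches the called loci.

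Optn, which encodes optineurin, a receptor that links ubiquitin-coated bacteria and mitochondria to LC3, had the lowest p of the set. It lies at chromosome 2 from 5020642 to 5064051 (mm10, minus strand) and stood at 5.22 and 3.20 FPKM. The log2 fold change was -0.57, with p = 0.003 and q = 0.0975 in the authors' deposited table. Within 2-fold of its mean level, 141 of 3197 tested loci had a ratio at least as low, and 40 of those 141 were called. Its exons overlap an antisense gene, 4930551O13Rik, listed at 0.0363 and 0 FPKM.

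Gabarapl1 (chromosome 6, 129533160 to 129542346 in GENCODE M21, plus strand, within a table locus that begins at 129531950) encodes a GABARAP family protein that is attached to the autophagosome membrane. Its level was 93.1 and 70.0 FPKM, and its log2 fold change was -0.41 (q = 0.165, p = 0.0065 in the authors' deposited table). Among 1812 tested loci within 2-fold of its mean level, 93 had a ratio at least as low and 50 of those were called. The smallest absolute log2 ratio among called loci of that level was 0.48 without a pseudocount, so differences of the size seen for Gabarapl1 lay below the smallest that were called. The stretch upstream of each of these genes is shown because they had the lowest p-values of the members. The Optn stretch, chr2:5064118-5064267, runs up to the base before the RefSeq transcript start, and the Gabarapl1 stretch, chr6:129533042-129533159, up to the base before the GENCODE gene start (GRCm38.p6, 5′ to 3′ on the gene's strand). Both are in lower case because none of the motifs searched was found in either.
Optn: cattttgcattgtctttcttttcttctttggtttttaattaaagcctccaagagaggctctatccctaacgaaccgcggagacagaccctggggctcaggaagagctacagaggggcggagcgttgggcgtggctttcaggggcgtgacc
Gabarapl1: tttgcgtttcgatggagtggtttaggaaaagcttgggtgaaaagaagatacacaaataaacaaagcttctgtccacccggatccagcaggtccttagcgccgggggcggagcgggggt

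Initiation genes were present at similar, modest levels, between 6.61 and 22.6 FPKM. None of the 5 was called, 1 was higher and 4 were lower in value, and the median log2 fold change was -0.10 (mean -0.17). Rb1cc1, which encodes FIP200, the scaffold that holds the ULK complex together, stood at 9.76 and 6.61 FPKM (log2 fold change -0.50, p = 0.0271 and q = 0.414 in the authors' deposited table). It lies at chromosome 1 from 6206197 to 6276648, and its exons overlap the antisense gene 4732440D04Rik, at 0.708 and 1.23 FPKM.

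The kinase genes of the complex had differences of opposite sign, and neither was called. Ulk1, the main initiating kinase, stood at 10.1 and 7.42 FPKM (log2 fold change -0.39, q = 0.902 in the authors' deposited table). Its paralogue Ulk2 stood at 12.3 and 14.9 FPKM (log2 fold change 0.25, q = 0.769 in the authors' deposited table). The Ulk1 level was 0.815 times the Ulk2 level in the MEK1-low group and 0.499 times in the MEK1-hi group, and that difference was not tested. The regulatory subunit genes Atg13, at 14.9 and 13.8 FPKM, and Atg101, at 22.6 and 21.2 FPKM, differed by less than 0.1 on the log2 scale.

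Nucleation genes were led by Becn1, which encodes Beclin 1, the regulatory subunit of the lipid kinase complex. Becn1, in a locus that runs past its GENCODE gene, stood at 90.4 and 75.9 FPKM (log2 fold change -0.25, q = 0.999 in the authors' deposited table). Its level was 9.65 and 7.49 times that of Pik3c3, the catalytic subunit VPS34, which stood at 9.36 and 10.1 FPKM. Pik3r4, the VPS15 subunit, stood at 10.3 and 8.10 FPKM (log2 fold change -0.31, q = 0.794 in the authors' deposited table).

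The subunits that give the complex its role differed in sign. Atg14, which directs it to autophagosome formation, stood at 5.47 and 4.79 FPKM, the lowest level of the step. Uvrag, which directs it to endosomes and later maturation, stood at 20.2 and 26.5 FPKM, the highest log2 fold change of all members at 0.37 (q = 0.902 in the authors' deposited table). Uvrag was thus 3.69 times Atg14 in the MEK1-low group and 5.52 times in the MEK1-hi group, a difference that was not tested. Ambra1, a scaffold that promotes Beclin 1 activity, stood at 13.7 and 13.9 FPKM. Of the 6 nucleation genes 3 were higher and 3 lower in value, the authors' deposited table called 0 and gave 0 an unadjusted p under 0.05, and the median was -0.07 (mean -0.037).

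Membrane supply genes had the smallest median absolute log2 fold change of the 5 steps with several genes, at 0.07. All 6 lay within 0.2 of 0 on the log2 scale, 1 higher and 5 lower, with a median of -0.07 and q = 0.999 for each in the authors' deposited table. Vmp1, an endoplasmic reticulum scramblase needed for autophagosome growth, was the most abundant at 139 and 122 FPKM. Its locus is joined with Mir21a, the gene of microRNA 21 that lies at its 3′ end, and their reads cannot be told apart. Atg9a, the scramblase of the vesicles that seed the membrane, stood at 18.5 and 18.0 FPKM in a locus joined with Abcb6 and Gm29253.

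The remaining members of this step were not called either, and Atg2a had the largest difference among them, at -0.15. Of the lipid transfer protein genes, Atg2a stood at 7.42 and 6.56 FPKM and Atg2b at 6.31 and 5.87 FPKM. Wipi2, which recruits the conjugation machinery to the marked membrane, stood at 14.1 and 13.6 FPKM. Its relative Wipi1 stood at 6.12 and 6.23 FPKM, the member of the step with a higher value.

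**Figure D2:**
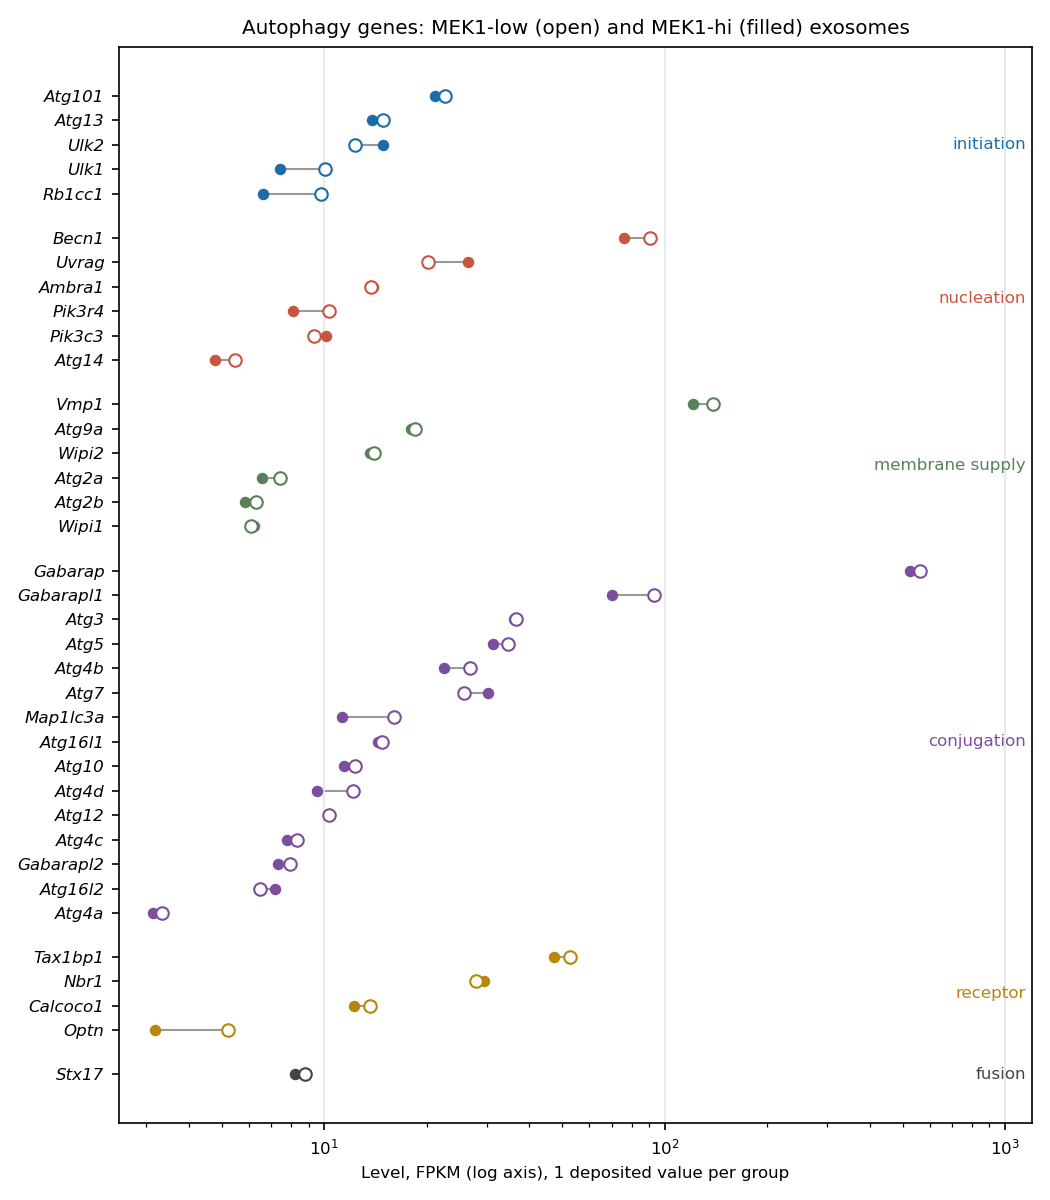
Each row is an autophagy gene and the horizontal axis is its level in FPKM on a log scale, with the MEK1-low value as an open circle and the MEK1-hi value as a filled circle, 1 deposited value per group and no error bar. Gabarap stands apart at the right, Vmp1, Becn1, Gabarapl1 and Tax1bp1 follow, and the filled circle lies to the left of the open one in 28 of 37 rows.

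Conjugation genes covered the widest span of levels, from Atg4a at 3.34 and 3.14 FPKM to Gabarap at 562 and 526 FPKM. Of the 15 analysed, 3 were higher and 12 lower in value, 0 were called, and the median log2 fold change was -0.09. The authors' deposited table gave an unadjusted p under 0.05 for 2 of them, both lower and both genes for ubiquitin-like proteins. The other 11 genes of the step, enzymes and their partners, had a median of -0.07 and q = 0.999 throughout in that table.

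All 4 analysed genes of the LC3 and GABARAP families had lower values with MEK1-hi exosomes, by different amounts. Map1lc3a (chromosome 2, 155276297 to 155278073), which encodes LC3A, stood at 16.04 and 11.3 FPKM (log2 fold change -0.48, p = 0.0133 and q = 0.270 in the authors' deposited table). Gabarap, a relative that acts late in autophagosome closure and fusion, differed by -0.09, from the highest level of any member. Gabarapl2, also called GATE-16, stood at 7.95 and 7.33 FPKM, 70.7-fold and 71.8-fold under Gabarap. Gabarap held 82.7% of the summed FPKM of the 4 genes in the MEK1-low group and 85.6% in the MEK1-hi group, a share that leaves out Map1lc3b. The sum was 679 and 614 FPKM. Such short genes can share reads with copies elsewhere in the genome, so their levels are less certain than those of longer genes.

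The enzymes that activate and transfer these proteins were at middle levels. Atg7, the E1 enzyme of the system, stood at 25.7 and 30.3 FPKM (log2 fold change 0.23, q = 0.999 in the authors' deposited table), and Atg3, the E2 enzyme for LC3, at 36.7 and 36.0 FPKM. Atg10, the E2 enzyme for ATG12, stood at 12.3 and 11.5 FPKM. Atg5 stood at 34.8 and 31.3 FPKM and Atg12, whose product is joined to ATG5, at 10.4 FPKM in both groups. Atg5 thus had 3.36 and 3.02 times the level of its partner.

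None of the genes that place or process the conjugates was called in the authors' deposited table. Atg16l1, which brings the conjugate to the membrane, stood at 14.8 and 14.4 FPKM and its paralogue Atg16l2 at 6.48 and 7.17 FPKM. The ATG4 proteases, which prime LC3 proteins and release them from membranes, all had lower values with MEK1-hi exosomes. Atg4b, the most abundant of the 4, stood at 26.9 and 22.5 FPKM and Atg4d at 12.2 and 9.53 FPKM, the largest difference among them at -0.32 (q = 0.999 in the authors' deposited table). Atg4c stood at 8.33 and 7.80 FPKM.

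Among promoter windows from RefSeq (GRCm38.p6), 32 of the 38 members had an entry, and the 250 bases before each start were searched on both strands. CACGTG, the E-box bound by TFEB and other basic helix-loop-helix factors, was found for 3 of the 32 members (9.38%), beside 6.86% of 27025 genes. Conjugation, the largest step with 16 of the 38 listed genes, had no window for Atg12, Atg16l1 and Map1lc3a. It held all 3 genes with a match, namely Atg3, Atg5 and Atg7. They are shown because they include the E1 enzyme, an E2 enzyme and ATG5, each 5′ to 3′ on the plus strand with CACGTG in capitals. Relative to the RefSeq starts, the motif ends 9 bases before that of Atg5 and begins 94 and 71 bases before that of Atg3. In Atg7 it begins 132 bases before a RefSeq start at 114671096, which lies 27999 bases inside the gene as GENCODE M21 annotates it, so this stretch is not the promoter of the gene's outermost start. The Atg3 stretch lies at chr16:45158708-45158775, the Atg5 stretch at chr10:44268298-44268338 and the Atg7 stretch at chr6:114670937-114671004.
Atg3: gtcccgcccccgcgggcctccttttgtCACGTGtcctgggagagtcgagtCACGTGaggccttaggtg
Atg5: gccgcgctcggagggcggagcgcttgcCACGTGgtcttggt
Atg7: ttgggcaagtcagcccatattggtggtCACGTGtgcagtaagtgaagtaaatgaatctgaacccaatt

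These genes differed in sign, with log2 fold changes of -0.03 for Atg3, -0.15 for Atg5 and 0.23 for Atg7, none of them called in the authors' deposited table. TGACNNNGC, the core of the antioxidant response element bound by NRF2, was found for 4 members (12.5%), Atg13, Tax1bp1, Ulk2 and Vmp1, beside 11.5% of all genes. GTAAACA, a FOXO motif, was found for 0 of 32 members and 3.54% of all genes, and the longer CLEAR element of TFEB, which contains the E-box, for 0 of 32 and 0.270%. A match is a description of letters in the window and not a bound site.

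Cargo receptors had the lowest median of the steps, at -0.15, with 1 of 4 higher and 3 lower in value and 0 called in the authors' deposited table. Apart from Optn, described above, their differences were within 0.2 on the log2 scale. Tax1bp1, a receptor for ubiquitinated protein aggregates that also restrains NF-kB signalling, was the most abundant at 52.8 and 47.4 FPKM. Its level was 10.1 times that of Optn in the MEK1-low group and 14.8 times in the MEK1-hi group, a difference that was not tested. Nbr1, a receptor for aggregates and peroxisomes, stood at 27.9 and 29.5 FPKM, and Calcoco1, a receptor for the endoplasmic reticulum and Golgi, at 13.7 and 12.3 FPKM. Stx17, the SNARE gene that serves fusion with the lysosome, stood at 8.81 and 8.19 FPKM (log2 fold change -0.09, q = 0.999 in the authors' deposited table).

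**Figure D3:**
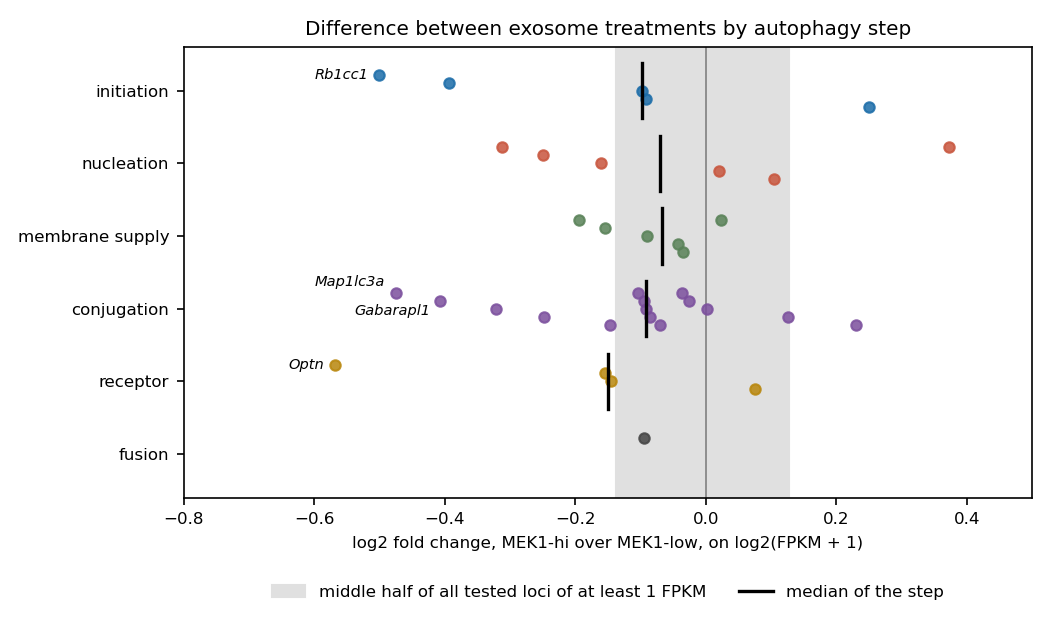
Points are autophagy genes placed by step, the horizontal axis is the log2 fold change (MEK1-hi over MEK1-low, on log2(FPKM + 1)), vertical bars are the median of each step and the grey band is the interquartile range of all tested loci of at least 1 FPKM, from -0.14 to 0.13. The medians of the 5 steps with several genes lie between -0.15 and -0.07, and the named genes are the 4 at an unadjusted p under 0.05.

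Beyond the core machinery, 63 other genes of the pathway were listed, of which 62 had been tested and 0 were called in the authors' deposited table. The exception to testing was Calcoco2, a receptor gene listed at 0 in both groups. At an unadjusted p under 0.05 in that table, 1 was higher (1.61%) and 4 were lower (6.45%). Over all loci tested, 2.44% were called, and 3.53% were higher and 5.12% lower at that p. The 61 tested at 1 FPKM or more were split evenly, with 31 higher and 30 lower in value, and their median was 0.02, beside 0.00 for all such loci.

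Bcl2l1, which encodes the survival protein BCL-XL that also binds Beclin 1, had the largest difference of the list. It stood at 49.0 and 71.1 FPKM (log2 fold change 0.53, p = 0.0018 and q = 0.0660 in the authors' deposited table). Sqstm1, which encodes p62, the receptor for ubiquitinated aggregates, stood at 645 and 473 FPKM (log2 fold change -0.45, p = 0.0038 and q = 0.113 in the authors' deposited table). Within 2-fold of its mean level 19 of 247 tested loci had a ratio at least as low, and 14 of those were called.

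The other 3 at an unadjusted p under 0.05 were lower in value. Vamp8, the lysosomal SNARE gene that pairs with syntaxin 17, stood at 305 and 234 FPKM (log2 fold change -0.38, q = 0.205 in the authors' deposited table). Dapk1, a kinase gene whose product phosphorylates Beclin 1, stood at 66.4 and 50.8 FPKM (log2 fold change -0.38, q = 0.221 in the authors' deposited table). Trp53inp2, a gene for a nuclear protein that binds LC3, stood at 29.7 and 22.9 FPKM (log2 fold change -0.36, q = 0.525 in the authors' deposited table).

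By group, the 27 regulators had a median of 0.03, the 7 genes of lipid transfer and membrane 0.17, the 13 fusion genes 0.06 and the 14 further receptors measured at 1 FPKM or more -0.21. Among those receptors 11 were lower and 3 higher in value. Among the 2 most abundant genes of each group, Sqstm1 alone had a p-value under 0.05 before adjustment. Sh3glb1, a membrane-bending partner of the Beclin 1 complex, stood at 148 and 131 FPKM and Tfe3, a transcription factor of lysosomal genes, at 82.7 and 71.0 FPKM. Lamp1, a lysosomal membrane protein gene, stood at 799 and 768 FPKM, and Rab7, the late endosomal GTPase gene, at 299 and 288 FPKM. Wdr45, of the WIPI family and in a joined locus, stood at 30.3 and 24.6 FPKM, and Wdr45b at 24.2 and 26.6 FPKM. Phb2, a mitophagy receptor gene in a joined locus, stood at 119 and 125 FPKM.

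The kinase and transcription factors that set autophagy gene activity were likewise not called, and are named here for their role after their values were seen. Mtor, the kinase that holds ULK1 inactive in fed cells, stood at 7.48 and 7.77 FPKM, and Rptor, its partner in that complex, at 9.43 and 10.8 FPKM. Prkaa1, a catalytic subunit of AMPK, which activates ULK1, stood at 14.0 and 15.96 FPKM. Of the relatives of Tfe3, Tfeb stood at 32.6 and 28.5 FPKM and Mitf at 51.5 and 44.8 FPKM. Their q-values ran from 0.966 to 0.999 in the authors' deposited table.

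**Figure D4:**
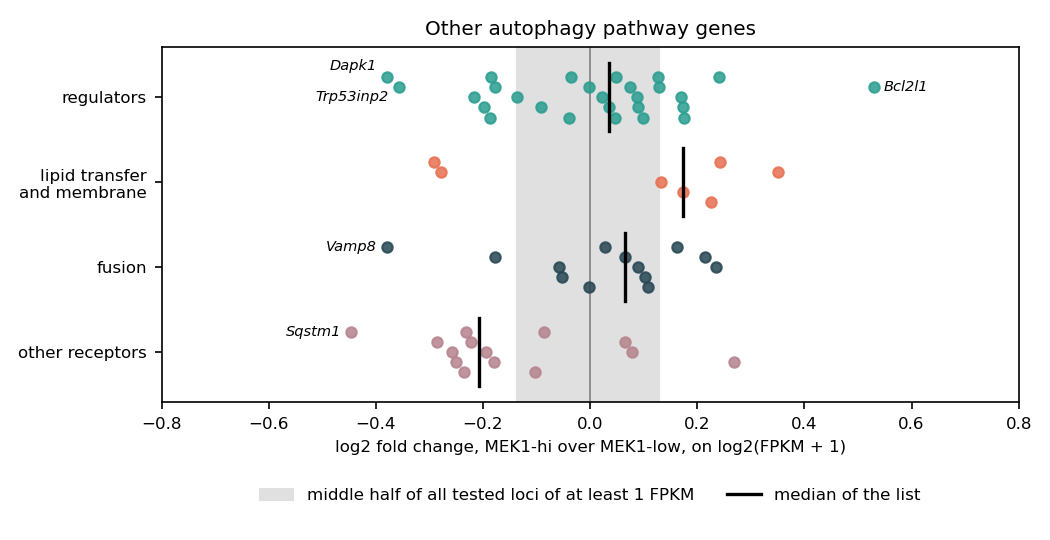
Points are the 61 other pathway genes tested at 1 FPKM or more, placed by group, with the log2 fold change (MEK1-hi over MEK1-low, on log2(FPKM + 1)) on the horizontal axis, vertical bars for group medians and the grey band for the interquartile range of all such loci. Bcl2l1 at 0.53 has the highest value of the 31 genes on the higher side, and the further receptors, with Sqstm1 at -0.45, have the lowest group median at -0.21.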

How the data were processed

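Stranded mRNA libraries were made from 750 ng of TRIzol-extracted RNA and sequenced to a planned 25000000 paired-end reads (100 bp) each, per the labels' protocols. Per the submitters' processing notes, TopHat, Cufflinks and Cuffdiff were used with build mm10, FastQC 0.73 is also listed, and settings are not given in the sources used here. The authors deposited 1 FPKM value per group and, per the file headers, a test score, p-value and q-value per locus; depth per sample is unknown. Each test is the authors' deposited Cuffdiff test. Adjusting the deposited p-values over the 12648 tested loci by Benjamini-Hochberg gave the deposited q-values to within 5.19e-07.

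GFP exo, a column name, was taken as MEK1-low because that group's treatment label carries GFP. Symbols came from GENCODE M21 (same build) and matched 54771 of 55029 identifiers. Medians cover tested loci with a group value of at least 1 FPKM, with a pseudocount of 1. Other pathway genes are named where called, at an unadjusted p under 0.05 or among the 2 most abundant of their group, except Calcoco2 and 5 regulators (Mtor, Rptor, Prkaa1, Tfeb, Mitf), chosen after their values were seen. Members and lists were chosen with earlier results of these data known. Start positions were converted to count from 1. The authors' locus ran past the GENCODE gene for 8 members (Atg16l2, Atg2b, Atg4b, Atg4d, Atg9a, Becn1, Gabarapl1 and Tax1bp1). How far this enters their levels was not tested. Strand use in counting is not stated, so reads of the 11 members with antisense exon overlap are not separable with certainty. Python 3.11.15 and pandas 2.3.3 were used, and code was tested on simulated data. Protein sequences of gene families, planned for comparison, were not analysed here.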

Additional observations from a re-analysis of the deposited data

How the results depend on the processing

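No autophagy gene was called at a q-value under 0.05, also when q-values were recomputed over loci of at least 1 FPKM (0.0925 for Optn) or over loci with a single gene (0.0965 for Optn). Under a q-value of 0.1, 1 member (Optn) and 1 other pathway gene (Bcl2l1) passed. The share of all tested loci under that q-value was not computed, so these counts cannot be set beside it. At an unadjusted p under 0.05 the counts were 4 and 5, beside 5.12% lower and 3.53% higher over all loci tested. Both rules are looser by construction. The median log2 fold change of the members was -0.09 and ran from -0.11 to -0.09 under 7 alternatives (a pseudocount of 0.1 or none, no filter, at least 5 FPKM, single-gene loci, centring on all loci, and the mean). Dropping the filter could not move it, since all 37 members were at 1 FPKM or more in both groups. Centring could move it by only 0.0009. The medians of all 5 steps stayed below 0 under the same 7 alternatives, but several of these could hardly move them. Dropping the filter added no gene, centring shifted them by 0.0009, and the single-gene rule left out genes of membrane supply only. As a mean, initiation moved from -0.098 to -0.17 and nucleation from -0.070 to -0.037. The median of the other pathway genes, 0.02, turned to -0.038 over genes of at least 5 FPKM and to -0.019 as a mean, and the cause was not tested. None of the 42 genes checked changed sign with the pseudocount or centring, but this could not have come out otherwise. A pseudocount added to both groups cannot change a sign. Centring shifted each value by 0.0009, less than the smallest difference checked (0.0025 for Atg12). No paired analysis was possible because the table holds 1 value per group, and for the same reason leaving out each replicate was not run.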

Other observations

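Among the 9443 tested loci whose mean level lay within the range spanned by the autophagy genes, 50.2% had a lower value with MEK1-hi exosomes and the median log2 fold change was -0.00, beside 75.7% and -0.09 for the 37 members. Of those loci, 499 were lower and 312 higher at a p under 0.05 without adjustment in the authors' deposited table. These are descriptions of 1 value per group, and their difference was not tested.

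Map1lc3a and Rb1cc1 can be set beside loci within 2-fold of their own mean level. For Map1lc3a, 158 of 4389 such loci had a ratio at least as low, and 73 of those were called in the authors' deposited table. For Rb1cc1 the figures were 158 of 4123 loci, with 63 called. Bcl2l1 differed on the higher side, where 24 of 2404 loci had a ratio at least as high and 19 of those were called.

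Exons of 11 members overlap a gene on the opposite strand. The partners of Becn1 (Cntd1), Gabarapl1 (1700101I11Rik), Atg14 (Gm49004), Uvrag (Gm45187), Optn and Tax1bp1 (Gm43966) were at most 0.516 FPKM in either group and had not been tested. The partners of Atg4d (Kri1, 27.6 and 28.7 FPKM), Atg2b (Gskip, 14.1 and 13.3 FPKM), Atg9a (Ankzf1, 8.96 and 7.23 FPKM) and Atg16l2 (Fchsd2, 5.93 and 5.35 FPKM) stood at higher levels, and how far they enter the member's value was not tested.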
